A study of Mus musculus with 40 samples.

Results

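The change in gene expression between 2 and 5 days post-resection (dpr) was examined in the rib callus of mature mice. It rests on the 7 libraries of mature mice at these times, of 40 samples in the series and 39 libraries with counts. These are all 4 libraries at 2dpr (replicates 1 to 4) and 3 at 5dpr (replicates 1, 3 and 4); replicate 2 at 5dpr was not analysed here. They were chosen by age and day alone, and 21204 genes of the filtered count table were compared. Both groups were wild-type mice older than 10 months in which a piece of rib bone had been removed; the study's methods give female C57BL/6 mice. The groups share genotype, age and surgery and differ in the day of collection and in the animals. The tissue was a whole piece of callus that also held bone, intercostal muscle and marrow, so each library is a mixture of cell types. Whether each library is 1 mouse is not given in the sources used here, so the p-values measure the spread between these samples.

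After a rib is resected, a clot forms that neutrophils and monocytes enter, drawn by chemokines and by cytokines such as interleukin 1. In the days that follow, stromal cells and periosteal progenitors divide and lay down a collagen-rich matrix, in which cartilage and then bone can form. Cut muscle repairs itself in parallel: satellite cells, the stem cells of muscle, give rise to myoblasts that fuse into new fibres, and these fibres use embryonic and perinatal forms of the contractile proteins before the adult forms return.

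Total counts ranged from 7884546 to 20936406 at 2dpr and from 11345552 to 20136183 at 5dpr. At 2dpr, replicate 3 stood apart. It held reads on 14214 genes, against 20220 to 20823 in the other 3 libraries, and 1022 of the 13641 genes with an expected count of at least 20 had none in it, against 12 to 24 such genes in the others. Counts over all genes, and several of the results below in which its zeros or high values matter, are also given without it. Collagen genes took 4.99% ± 0.207 of counts at 5dpr (SD, n = 3) and 1.51% ± 0.249 at 2dpr (SD, n = 4), with no overlap (two-sided exact permutation test, p = 0.0286, the smallest that 3 against 4 libraries allow). The share of adult muscle genes was 2.45% to 5.52% at 5dpr and 1.77% to 3.45% at 2dpr (exact permutation p = 0.143), and that of mitochondrially encoded genes was 1.60% to 2.52% against 2.46% to 3.72% (exact permutation p = 0.0857).

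Between 2 and 5dpr, genes of new muscle fibres, of collagen matrix and of fetal growth rose, while genes of the early inflammatory response fell. A gene was called when its adjusted p in edgeR's quasi-likelihood test, over all genes, was under 0.05. By this rule 1724 genes were higher at 5dpr, which is 8.13% of those tested, and 1353 were lower, which is 6.38%. Of these, 995 had a log2 fold change of at least 1 and 514 one of -1 or below, and the median over all genes tested was 0.06 on the log2 scale. For 2766 genes (13.0%) every 5dpr library lay above every 2dpr library, and for 1691 genes (7.97%) every one lay below. In bulk tissue, fewer cells of a type and less RNA per cell cannot be told apart, and this holds for each group of genes described here.

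Without 2dpr replicate 3, 1529 genes were higher and 1258 lower, of which 1324 and 927 were also called with it, and 0 genes called in both fits changed direction. Of the 1724 genes called higher with it, 350 had no read in that library. The number of lower genes was 722 without 5dpr replicate 1, 898 without 5dpr replicate 3 and 591 without 5dpr replicate 4, and without the last of these 1078 genes were higher. With only the 7 libraries in the fit, in place of all 39, 434 genes were higher and 328 lower.

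**Figure D1:**
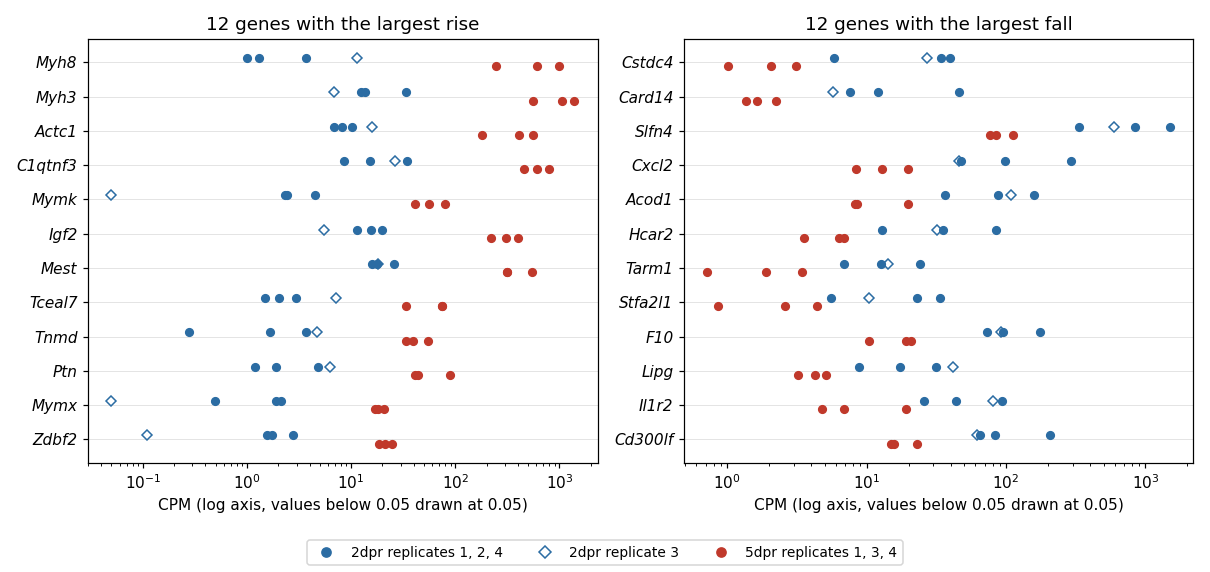
CPM (library-size-scaled counts, log axis) in each library of mature mice for the 12 genes with the largest called rise (left) and the 12 with the largest called fall (right) from 2dpr (blue, replicate 3 as open diamonds) to 5dpr (red). The 2dpr and 5dpr points of each gene do not overlap, which the choice of these genes required.

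The largest rises belonged to the machinery of newly formed muscle fibres. Myh8, the perinatal myosin heavy chain, was at 0.991, 3.72, 11.4 and 1.30 CPM in 2dpr replicates 1 to 4 and at 246, 604 and 984 CPM in 5dpr replicates 1, 3 and 4, a log2 fold change of 7.24 ± 0.68 (± SE throughout for fold changes; adjusted p = 8.32e-09). Myh3, the embryonic myosin heavy chain (chr11:67078300-67102291, plus strand, GRCm38), went from 12.6, 33.5, 6.88 and 13.5 CPM to 563, 1069 and 1391 CPM (log2 fold change 5.92 ± 0.51, adjusted p = 1.06e-09). All 5dpr libraries were higher than any 2dpr library for both genes, with 5dpr replicate 1 the lowest of its group. Myosin heavy chain genes resemble each other, so reads shared between them may have been lost or split in counting. Actc1, the cardiac actin that young skeletal fibres also make, rose by 5.22 ± 0.52, and Myl4, an embryonic myosin light chain, by 3.70 ± 0.34.

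Both genes whose products fuse myoblasts were among the 12 largest rises. Mymk (myomaker) had 2.31, 4.50, 0 and 2.41 CPM at 2dpr and 41.3, 56.3 and 79.9 CPM at 5dpr (log2 fold change 4.65 ± 0.57, adjusted p = 4.65e-07). Mymx (myomixer) had 0.496, 1.91, 0 and 2.13 CPM and then 17.0, 18.3 and 20.6 CPM (3.95 ± 0.65, adjusted p = 5.84e-05). Both zeros are those of 2dpr replicate 3, and the other 3 libraries at 2dpr were also below every 5dpr library; without replicate 3 the changes were 4.28 ± 0.47 and 3.59 ± 0.57.

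Of 21 genes of satellite cells and muscle regeneration, 17 were called higher and none lower, with a median log2 fold change of 1.97. Pax7, which marks satellite cells, rose by 2.13 ± 0.57 (adjusted p = 0.00903), from 0 to 4.24 CPM at 2dpr to 7.87 to 11.3 CPM at 5dpr; without 2dpr replicate 3, where it had no read, the change was 1.75 ± 0.46 (adjusted p = 0.00924). Myog, which drives myoblasts to differentiate, rose by 1.31 ± 0.28, with 107 CPM in its highest 2dpr library, replicate 4, and 152 to 187 CPM at 5dpr. Ncam1, an adhesion molecule of myoblasts and young fibres, rose by 1.90 ± 0.19. Among members picked after their values were seen, Myf5 and Myod1, which commit cells to the muscle lineage, rose by 1.96 ± 0.47 and 0.82 ± 0.28, and the fetal acetylcholine receptor subunit Chrng and the subunit Chrna1 by 3.17 ± 0.59 and 1.97 ± 0.29. Without 2dpr replicate 3, 14 of the 21 genes were higher and 1 was lower, the laminin receptor gene Itga7 (-0.66 ± 0.22), with a median of 2.00.

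The promoters shown are of receptor genes of this program and of chemokines described further on, from groups in which most called members moved in 1 direction. Each one shown holds a match to its motif, while most promoters of these groups do not. Each run gives 250 bases before to 50 bases after a RefSeq start on GRCm38.p6, read along the gene's strand. Capitals mark the myogenic E-box CAGCTG in the first pair and the kappaB motif (GGG, any pair of bases, TTTCC) or its reverse complement in the second.
Chrng (chr1:87205561-87205860, plus strand): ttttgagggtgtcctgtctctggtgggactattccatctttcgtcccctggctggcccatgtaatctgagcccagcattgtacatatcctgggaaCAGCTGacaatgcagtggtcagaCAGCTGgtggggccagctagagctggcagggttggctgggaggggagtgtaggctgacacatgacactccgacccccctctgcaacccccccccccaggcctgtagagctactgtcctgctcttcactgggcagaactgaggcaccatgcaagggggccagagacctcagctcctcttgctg
Chrna1 (chr2:73580289-73580588, minus strand): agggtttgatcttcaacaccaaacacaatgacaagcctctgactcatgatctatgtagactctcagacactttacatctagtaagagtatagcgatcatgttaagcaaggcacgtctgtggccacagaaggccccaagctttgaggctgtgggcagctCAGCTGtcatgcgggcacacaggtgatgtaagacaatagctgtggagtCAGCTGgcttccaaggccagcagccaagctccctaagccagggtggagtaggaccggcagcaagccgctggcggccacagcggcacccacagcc
Cxcl2 (chr5:90903649-90903948, plus strand): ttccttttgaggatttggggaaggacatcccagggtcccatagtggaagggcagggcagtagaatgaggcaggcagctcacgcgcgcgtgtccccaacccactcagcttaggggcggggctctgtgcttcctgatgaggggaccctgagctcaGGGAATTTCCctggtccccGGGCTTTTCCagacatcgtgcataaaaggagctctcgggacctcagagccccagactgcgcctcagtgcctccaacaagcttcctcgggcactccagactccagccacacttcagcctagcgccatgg
Cxcl3 (chr5:90785851-90786150, plus strand): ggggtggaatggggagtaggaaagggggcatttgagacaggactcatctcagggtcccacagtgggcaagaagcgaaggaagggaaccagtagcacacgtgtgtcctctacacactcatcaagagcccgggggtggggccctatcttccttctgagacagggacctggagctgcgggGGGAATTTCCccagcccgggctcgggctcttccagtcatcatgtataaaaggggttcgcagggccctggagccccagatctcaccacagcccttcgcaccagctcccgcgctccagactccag
The E-box, which reads the same on both strands, begins 155 and 132 bases before the start in Chrng and 92 and 44 before it in Chrna1. It was in 3 of 12 promoters found for 11 called regeneration genes (25%) and in 16.3% of all 32851 promoters searched. Of the promoters of all genes called higher it was in 20.6%, and of those called lower in 17.5%. It was also in 4 of 13 promoters of called chemokine genes (30.8%). Among the 13 is that of Cx3cl1, which rose. The kappaB motif, searched on both strands, begins 97 and 78 bases before the start in Cxcl2 and 73 in Cxcl3. It was in 3 of the 13 chemokine promoters (23.1%), in 1 of the 12 regeneration promoters (8.33%) and in 1.63% of all promoters. Of the promoters of all genes called lower it was in 2.53%, and of those called higher in 1.56%. These are matches of letters, and binding was not measured.

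Of 22 sarcomere genes of adult muscle, 12 were higher and none lower (median 0.98), and their summed level was 23990 to 54590 CPM at 5dpr and 17170 to 33410 CPM at 2dpr. The fast light chains Mylpf and Myl1 rose by 2.22 ± 0.30 and 1.99 ± 0.29, and myoglobin (Mb) by 1.89 ± 0.30. Myh4, the fast myosin of adult fibres, was at 1521, 1645, 1904 and 3140.2 CPM at 2dpr and at 852, 1923 and 2509.6 CPM at 5dpr, with overlapping groups and no call (-0.22 ± 0.35, adjusted p = 0.732). Creatine kinase (Ckm), at 0.65 ± 0.38, was not called either. Acta1, the skeletal actin, was called at 0.93 ± 0.31 with overlapping libraries, since 2dpr replicate 4 held 5357 CPM, and its adjusted p was 0.110 without 2dpr replicate 3.

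With the mean log2 level of the adult muscle genes as a covariate, 982 genes were higher and 687 lower over the whole table. Of the 21 regeneration genes, 11 were then higher and 2 lower, with a median of 1.79.

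Genes of fetal growth, many of them expressed from 1 parental copy only, rose as well. Igf2, a growth factor (chr7:142650766-142666816, minus strand), had 11.3, 19.9, 5.55 and 15.5 CPM at 2dpr and 218, 306 and 400.4 CPM at 5dpr, a log2 fold change of 4.55 ± 0.34 (adjusted p = 2.18e-11). H19, the noncoding RNA encoded beside it (chr7:142575529-142578143, minus strand), had 209, 286, 166 and 226 CPM and then 1805, 2759 and 3216 CPM (3.55 ± 0.24, adjusted p = 3.18e-12). The groups were far apart for both, with replicate 3 the lowest at 2dpr and replicate 4 the highest at 5dpr. Mest, also imprinted, rose by 4.34 ± 0.33 and Zdbf2 by 3.76 ± 0.54.

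After these 4 genes had been seen, a list of 30 imprinted genes was drawn up to describe the rest. Apart from these 4, 24 of its members were tested, of which 17 were higher and 0 lower, with a median of 1.38; without 2dpr replicate 3, 16 of the 24 were higher. Cdkn1c, an inhibitor of cell division, went from 5.55 to 10.0 CPM at 2dpr to 61.4 to 94.1 CPM at 5dpr. Dlk1, made by several fetal progenitors, went from 0 to 0.606 CPM to 4.21 to 14.7 CPM. Igf2r, the receptor that clears Igf2, was called at 0.48 ± 0.15, and Airn, which overlaps it on the other strand, was not (-0.05 ± 0.21); whether the counting used strand is not given in the sources used here, so their reads may not be separated.

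Collagen matrix was the second broad rise. All 17 fibrillar and fibril-associated collagen genes were higher, with a median log2 fold change of 1.82 and a range of 1.23 to 2.45, and for all 17 every 5dpr library lay above every 2dpr library. Col1a1, which encodes the main chain of bone and scar collagen, was at 2187, 3036, 1347 and 1669 CPM at 2dpr and at 8344, 8964 and 8009 CPM at 5dpr (2.03 ± 0.42, adjusted p = 0.000916). Col3a1, the collagen of early granulation tissue, went from 4611, 5124, 3952 and 4731 CPM to 14723, 18698 and 15486 CPM (1.82 ± 0.22, adjusted p = 3.29e-07). The 3 libraries at 5dpr lay close together for both, and no 2dpr library reached them. Col6a1, Col6a2 and Col6a3, whose products form a network around cells, rose by 2.17 ± 0.21, 2.13 ± 0.24 and 1.95 ± 0.22, with 2dpr replicate 4 the lowest for each. Without 2dpr replicate 3, 16 of the genes were higher.

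Matrix proteins that signal to cells rose for the most part. Of 24 matricellular and adhesive proteins, 16 were higher and 1 was lower (median 1.28). Periostin (Postn), made by fibroblasts and periosteal cells, went from 816, 1437, 1318 and 210.1 CPM to 5285, 4847 and 6267 CPM (2.53 ± 0.38, adjusted p = 1.65e-05), with 2dpr replicate 4 far below the rest of its group. Tenascin C (Tnc) rose by 1.28 ± 0.32, thrombospondin 2 (Thbs2) by 1.56 ± 0.22 and fibrillin 2 (Fbn2) by 2.63 ± 0.38. Fibronectin (Fn1), laid down early after injury, was at 1878 to 2633 CPM at 2dpr and 2881 to 3645 CPM at 5dpr; the libraries did not overlap, but the change of 0.44 ± 0.35 was not called (adjusted p = 0.449). The member that fell was Spp1 (osteopontin), which macrophages and bone cells make, at -1.43 ± 0.47 with overlapping libraries.

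Of 27 genes for collagen processing and cross-linking, 15 were higher and none lower (median 0.83). Pcolce and Adamts2, which act on the ends of procollagen, rose by 1.50 ± 0.16 and 1.53 ± 0.17. The hydroxylases P4ha1 (-0.15 ± 0.14) and Plod2 (0.64 ± 0.27) and the cross-linking enzyme Lox (0.37 ± 0.18) were not called. Of 29 metalloproteinases and inhibitors, 10 were higher (34.5%, against 8.13% of all genes) and 2 lower (6.9%, against 6.38%). Mmp2 rose by 1.76 ± 0.18 and Mmp14, which activates it, by 1.08 ± 0.20, while the inhibitor Timp1 was not called (-0.20 ± 0.30).

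Markers of stromal cells and myofibroblasts were higher in 14 of 25 cases and lower in 1 (median 0.79). Acta2, the actin of contractile fibroblasts and vessel walls, went from 91.5 to 241 CPM at 2dpr to 488 to 683 CPM at 5dpr (1.67 ± 0.27, adjusted p = 5.29e-05), and Cthrc1, of matrix-producing fibroblasts, rose by 2.21 ± 0.31. The progenitor markers Prrx1 (0.41 ± 0.14, adjusted p = 0.0514) and Pdgfra (-0.07 ± 0.14) were not called. C1qtnf3, a secreted protein related to C1q (chr15:10952332-10980150, plus strand), went from 15.3, 34.2, 26.1 and 8.60 CPM to 602, 457 and 795 CPM (4.89 ± 0.35, adjusted p = 1.05e-11).

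The tendon gene Tnmd (tenomodulin) was also among the 12 largest rises, at 1.65, 3.72, 4.66 and 0.278 CPM and then 39.4, 33.5 and 55.0 CPM (4.18 ± 0.42, adjusted p = 2.16e-08). In a list of tendon genes made after that was seen, 9 of the 13 members other than Tnmd were higher and 0 lower (median 1.67), and 10 were higher without 2dpr replicate 3. Scx, a transcription factor of tendon progenitors, was at 6.36, 7.80, 0 and 9.30 CPM at 2dpr, the 0 in replicate 3, and at 17.9, 15.4 and 17.4 CPM at 5dpr (1.50 ± 0.52, adjusted p = 0.0494; without replicate 3 1.10 ± 0.37, adjusted p = 0.0398). The matrix protein Fmod rose by 1.83 ± 0.47.

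**Figure D2:**
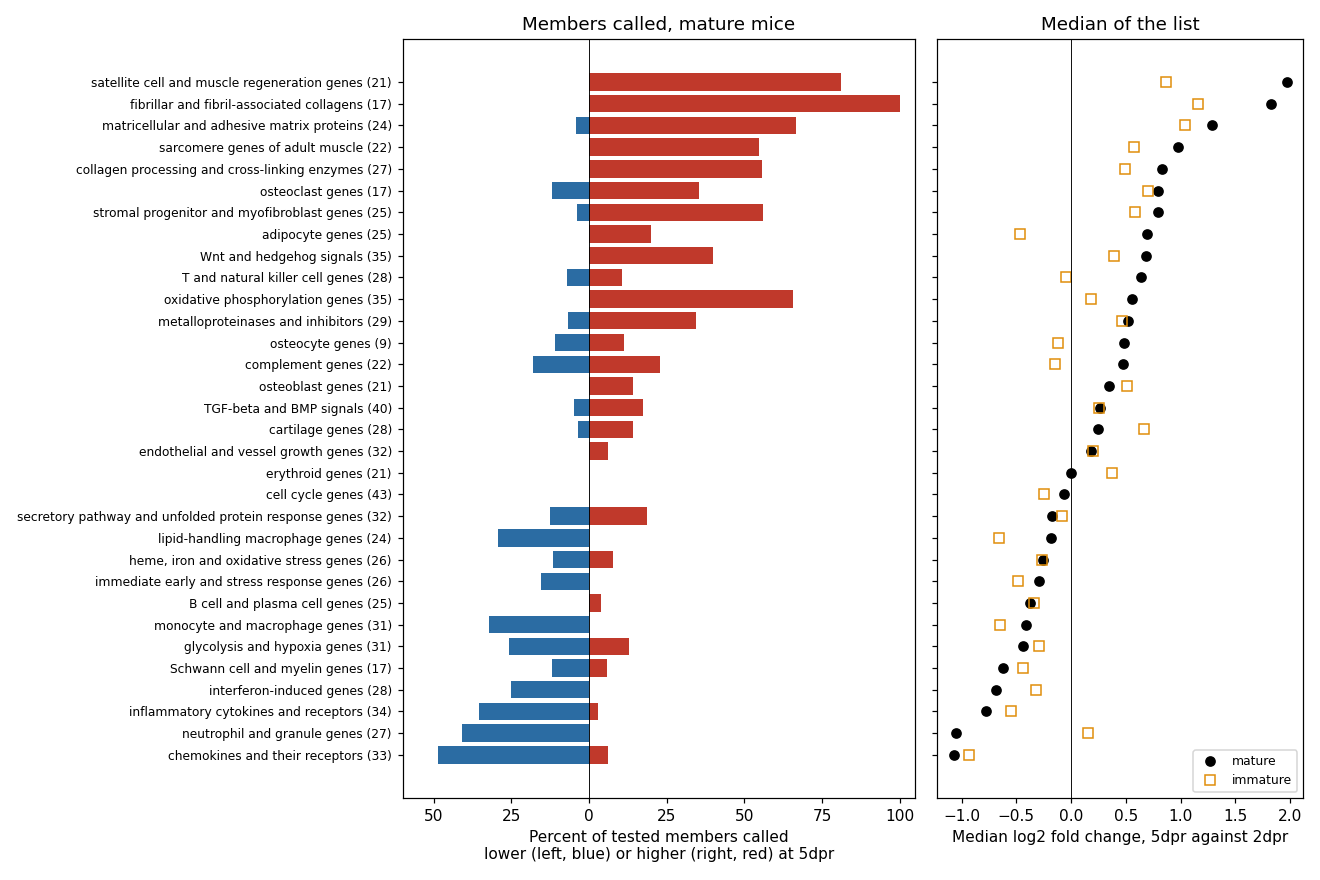
Percent of tested members of each of 32 gene lists called lower (blue) or higher (red) at 5dpr than at 2dpr in mature mice (left), and the median log2 fold change of each list in mature (black) and immature (orange squares) mice (right). Muscle regeneration genes and collagens have medians of 1.97 and 1.82 and chemokines one of -1.07; the medians of the ages were set side by side and not tested.

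The genes that define osteoblasts and cartilage cells were not called over the same interval. Of 21 osteoblast genes, 3 were higher (14.3%, against 8.13% of all genes) and none lower (median 0.34): Kremen1 (1.07 ± 0.14), a receptor for Dickkopf proteins that inhibit Wnt signals, Cdh11 (1.12 ± 0.27), a cadherin of mesenchymal cells, and Dlx5 (1.85 ± 0.62), a homeobox factor of bone, the last named after its value was seen. Runx2, which commits cells to the bone lineage, was at 16.0, 19.5, 5.11 and 12.2 CPM at 2dpr and 19.8, 14.6 and 21.4 CPM at 5dpr (0.48 ± 0.41, adjusted p = 0.479). Sp7, which acts after Runx2, was at 0.58 ± 0.57, and the bone matrix gene Ibsp at -0.28 ± 0.47, with 15.7 CPM in 2dpr replicate 4 and 111 to 209 CPM in the other 2dpr libraries. The groups overlapped for each of the 3.

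Of 28 cartilage genes, 4 were higher (14.3%) and 1 lower (median 0.24, and -0.02 without 2dpr replicate 3). The cartilage collagen Col2a1 was high in 2dpr replicate 2 (52.7 CPM) and 5dpr replicate 1 (49.3 CPM) and ranged from 2.17 to 7.55 CPM in the other 5 libraries. Acan, the proteoglycan of cartilage, had the same libraries on top, at 42.0 and 42.5 CPM, and was not called (0.57 ± 0.73), nor was Sox9, which specifies cartilage (0.00 ± 0.49).

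Among genes of osteoclasts, which resorb bone, Ctsk rose by 1.44 ± 0.37 (adjusted p = 0.00719) and Acp5 by 1.20 ± 0.35 (adjusted p = 0.0174). Both overlapped between groups because 2dpr replicate 3 held 209.9 CPM of Ctsk and 124 CPM of Acp5, against 66.6 to 75.9 and 49.6 to 52.0 CPM in the other 3. Without that library the changes were 2.01 ± 0.36 (adjusted p = 0.000175) and 1.64 ± 0.35 (adjusted p = 0.00122). Of 17 osteoclast genes, 6 were higher (35.3%, against 8.13% of all genes) and 2 lower (11.8%, against 6.38%) with replicate 3. Without it, 4 were higher and 1 lower. Not all members rose: Tnfrsf11a averaged 68.86 CPM at 2dpr (40.41 to 91.03) and 42.52 CPM at 5dpr (36.95 to 48.58), with overlapping libraries. Calcr was scarce, at 0 to 0.6063 CPM at 2dpr and 0.4314 to 0.7767 CPM at 5dpr.

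Signals that pattern the callus moved in part. Of 40 TGF-beta and BMP genes, 7 were higher (17.5%, against 8.13% of all genes) and 2 lower (5%, against 6.38%). Tgfbi went from 956 to 1406 CPM at 2dpr to 519 to 614 CPM at 5dpr. Id2 went from 53.6 to 78.3 CPM to 37.1 to 44.8 CPM. Tgfb3 went from 30.1, 46.7, 25.5 and 21.8 CPM to 145, 139.9 and 172 CPM (2.30 ± 0.20, adjusted p = 2.34e-10), whereas the ligand genes Tgfb1 (-0.18 ± 0.34) and Bmp2 (0.18 ± 0.29) were not called. Of 35 Wnt and hedgehog genes 14 were higher and none lower. The secreted Dkk3 rose by 2.33 ± 0.23, the Wnt5a receptor Ror2 by 1.93 ± 0.30, Wnt5a itself by 0.97 ± 0.27 and Smo, which carries the hedgehog signal, by 0.91 ± 0.17; Ptch1, a hedgehog receptor and target, was not called (-0.33 ± 0.22).

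Inflammatory genes fell. Of 33 chemokines and their receptors, 16 were lower and 2 higher (median -1.07). Ccl2, which calls in monocytes, was at 798, 665, 298 and 356 CPM at 2dpr and at 121, 161 and 59.7 CPM at 5dpr (-2.22 ± 0.34, adjusted p = 1.84e-05). Ccr2, its receptor, went from 754, 535, 917 and 696 CPM to 169, 185 and 168 CPM (-2.06 ± 0.30, adjusted p = 8.84e-06). Cxcl2, which draws neutrophils and whose promoter is printed above, was at 98.7, 47.7, 46.3 and 292 CPM and then at 12.9, 19.8 and 8.34 CPM (-3.14 ± 0.62, adjusted p = 0.000677). For these genes no 5dpr library reached the lowest 2dpr library, and for Cxcl2 replicate 4 was far above the other 2dpr libraries. Cxcl3, a related chemokine, fell as well (-2.52 ± 0.41), Cxcl1 was not called (-0.94 ± 0.68), and the membrane-bound chemokine Cx3cl1 rose (1.65 ± 0.25).

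Of 34 inflammatory cytokines and receptors, 12 were lower and 1 higher (median -0.78). Il1b was at 153, 61.8, 173 and 226 CPM at 2dpr and at 23.6, 50.5 and 26.8 CPM at 5dpr (-2.19 ± 0.48, adjusted p = 0.00208), and its decoy receptor Il1r2 and co-receptor Il1rap fell too (-2.55 ± 0.47 and -1.19 ± 0.21). Tnf fell (-1.37 ± 0.41), and Il6 was not called (-0.49 ± 0.68). Acod1, which makes itaconate in activated macrophages, and Hcar2, a receptor for hydroxylated fatty acids, were among the 12 largest falls (-3.00 ± 0.56 and -2.89 ± 0.45). Slfn4, a Schlafen gene of myeloid cells, was at 834, 333, 599 and 1508 CPM and then at 76.4, 113 and 84.3 CPM (-3.17 ± 0.59, adjusted p = 0.000322).

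Of 27 neutrophil genes 11 were lower and none higher (median -1.05), and 5 were lower without 2dpr replicates 3 and 4, an alternative chosen after the data were seen. Csf3r, the receptor for the neutrophil growth factor, fell (-1.79 ± 0.44). The granule proteins S100a8 (-0.86 ± 0.59) and S100a9 (-1.05 ± 0.59) were not called, with S100a8 at 246 CPM in 2dpr replicate 2 and 363 to 661 CPM at 5dpr. Among the largest falls, Cstdc4 (-3.67 ± 0.75) and Stfa2l1 (-2.78 ± 0.65) belong to the stefins, protease inhibitors with near-identical copies among which reads may be split.

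Of 31 monocyte and macrophage genes, 10 were lower and none higher (median -0.41). Fcgr1, an antibody receptor, went from 212 to 402 CPM to 81.2 to 112 CPM (-1.87 ± 0.29), and the integrin Itgam fell (-1.59 ± 0.30). The general macrophage markers Adgre1 (-0.36 ± 0.24), Csf1r (-0.12 ± 0.14) and Mrc1 (-0.58 ± 0.25) were not called.

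Of 28 interferon-induced genes 7 were lower (25%, against 6.38% of all genes) and none higher. Without 2dpr replicate 3, 14 were lower, and with the muscle covariate 0 were lower. Mx1, an antiviral protein, fell (-1.52 ± 0.39), as did Oas1a (-1.24 ± 0.33), while Isg15 was at -0.81 ± 0.43. Calls among B cell and T cell genes were below or near the shares over all genes, 8.13% higher and 6.38% lower. In the B cell list 1 of 25 was higher (4%), Ebf1 (0.92 ± 0.17), which stromal cells also use. Of 28 T and natural killer genes 3 were higher (10.7%) and 2 lower (7.14%). The T cell marker Cd3e was scarce, at 0 to 0.925 CPM across the 7 libraries. Of 21 erythroid genes edgeR called 0 in either direction, 1 had an unadjusted p under 0.05, and DESeq2 called 0.

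**Figure D3:**
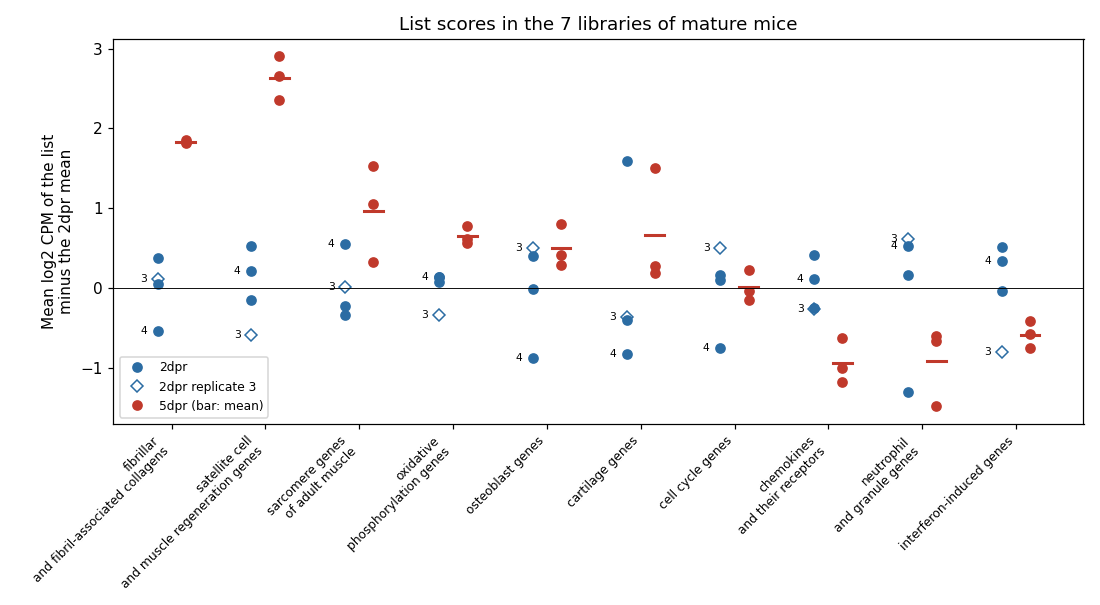
Mean log2 CPM of 10 gene lists in each library of mature mice, minus the mean of the 2dpr libraries (2dpr blue, with replicates 3 and 4 marked; 5dpr red, with their mean as a bar). The collagen and muscle regeneration scores of the 5dpr libraries lie above those of every 2dpr library, and the cell cycle scores overlap.

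No change in genes of cell division was detected. Of 43 cell cycle genes edgeR called 0 in either direction, 0 had an unadjusted p under 0.05, and DESeq2 called 0; their median was -0.07. Mki67, which marks dividing cells, was at 289.6, 266, 566 and 166 CPM at 2dpr and at 346, 247 and 284 CPM at 5dpr (-0.14 ± 0.42, adjusted p = 0.876), and Top2a had a change of -0.01 ± 0.40. The 2dpr libraries spread widely, with replicate 3 the highest and replicate 4 the lowest for both genes.

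Nuclear genes of energy metabolism shifted. Of 35 nuclear genes of oxidative phosphorylation, 23 were higher and none lower, and all 35 had a positive log2 fold change (median 0.55, range 0.28 to 1.66). The number called was 13 without 2dpr replicate 3, 5 without replicates 3 and 4, and 2 with the muscle covariate. The share of mitochondrially encoded genes did not rise with them: it was 1.60% to 2.52% at 5dpr and 2.46% to 3.72% at 2dpr. The muscle isoforms Cox8b and Cox7a1 rose by 1.66 ± 0.36 and 1.44 ± 0.26, and the general subunit gene Atp5b by 0.48 ± 0.16. Of 31 glycolysis and hypoxia genes, 8 were lower (25.8%, against 6.38% of all genes) and 4 higher (12.9%, against 8.13%). The glucose transporter Slc2a1 (-1.07 ± 0.25) and the hypoxia-induced Ero1l (-1.45 ± 0.25) fell, and the muscle enzymes Eno3 (1.44 ± 0.28) and Pgam2 (1.54 ± 0.28) rose.

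Vessel, nerve and fat genes were called in different shares, to be read against 8.13% higher and 6.38% lower over all genes. Of 32 endothelial genes 2 were higher (6.25%) and none lower, Rgs5 (1.01 ± 0.19), a marker of pericytes, and Angpt1 (0.81 ± 0.21), a vessel-stabilising ligand; Pecam1 (-0.17 ± 0.13) and Cdh5 (0.10 ± 0.17), which define endothelial cells, were not called. Of 17 Schwann cell and myelin genes 1 was higher and 2 were lower. The myelin gene Mbp fell (-0.80 ± 0.24), and Erbb3, the neuregulin receptor of Schwann cells, rose (1.35 ± 0.33). Of 25 adipocyte genes 5 were higher (20%). Thrsp, of fatty acid synthesis, was at 2.66 to 4.94 CPM at 2dpr and at 47.3, 15.2 and 17.9 CPM at 5dpr, whereas Adipoq, an adipocyte hormone, was at 260.3 CPM in 5dpr replicate 1 and at 84.0 to 103 CPM in the other 6 libraries, with no call (0.66 ± 0.32).

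**Figure D4:**
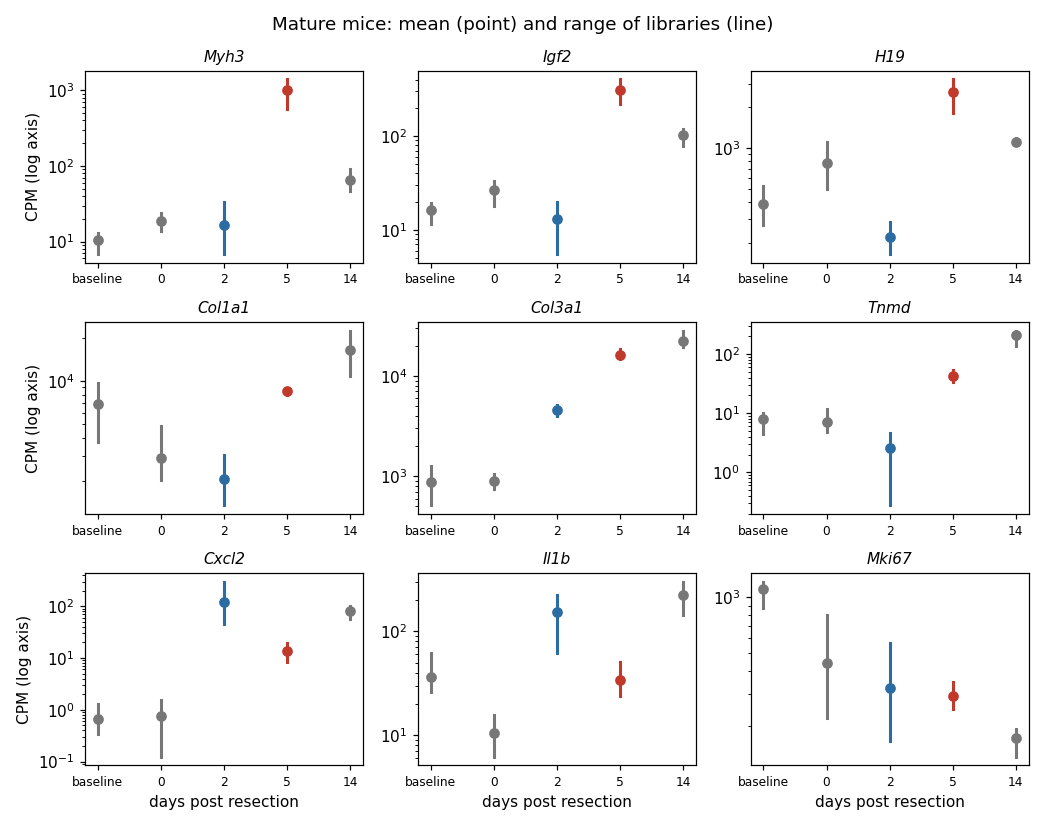
Mean (point) and range of libraries (line) in CPM on a log axis for 9 genes in mature mice at baseline and, along the axis, days 0, 2, 5 and 14 of healing (n = 4 libraries, n = 3 at day 5). Mean Myh3 was 16.6 ± 11.6 CPM (SD) at 2dpr and 1007 ± 417 at 5dpr.

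The values at 5dpr differed in how they stood against the other days of mature mice, which is given as a description with no test. Myh3 averaged 10.4 ± 2.61 CPM at baseline (SD, n = 4) and 18.9 ± 4.23 at 0dpr, 1007 ± 417 at 5dpr (SD, n = 3) and 65.8 ± 21.7 at 14dpr. Igf2 averaged 16.1 ± 3.76 CPM at baseline, 308 ± 91.2 at 5dpr and 103 ± 17.3 at 14dpr. Both had their highest mean at 5dpr. Col1a1 averaged 6918 ± 3000 CPM at baseline, 2060 ± 738 at 2dpr and 16580 ± 4826 at 14dpr, and Tnmd 7.87 ± 2.38, 2.58 ± 1.98 and 214 ± 51.1. Both had their highest mean at 14dpr.

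Among the inflammatory genes, Ccr2 averaged 99.2 ± 32.7 CPM at baseline, 726 ± 158 at 2dpr, 174 ± 9.40 at 5dpr and 129.5 ± 16.2 at 14dpr. Il1b did not follow it, averaging 35.9 ± 17.1 CPM at baseline, 154 ± 68.3 at 2dpr, 33.6 ± 14.7 at 5dpr and 225 ± 62.6 at 14dpr. Cxcl2 was likewise higher at 14dpr (82.6 ± 19.1 CPM) than at 5dpr (13.7 ± 5.77 CPM). Acan and Ibsp, at 29.1 ± 12.2 and 97.2 ± 21.7 CPM at 5dpr, averaged 273 ± 178 and 422 ± 154 CPM at 14dpr.

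Whether the change from 2 to 5dpr depended on age was tested as an interaction with the same change in immature mice, which were 7 weeks old (4 libraries at each day). In immature mice 922 genes were higher and 771 lower. Of the 3077 genes called in mature mice, 2884 had the same sign in immature mice, 1057 were called at both ages, and 1056 of those in the same direction. By edgeR 0 genes (0% of those tested) were called for the interaction, 1683 had an unadjusted p under 0.05, and DESeq2 called 36. The 6 genes with the smallest p had an adjusted p of 0.190 in edgeR with all libraries, and all 6 (Prkg1, Pnmal2, Rab40b, Ccdc141, Heyl and H19) were among those that DESeq2 called, at adjusted p from 0.0054 to 0.0176. Prkg1, a cGMP-dependent kinase of smooth muscle, was at -1.24 ± 0.27 in mature and 0.55 ± 0.25 in immature mice. H19 was at 3.55 ± 0.24 in mature and 2.11 ± 0.22 in immature mice, and Heyl, a Notch target, at 2.78 ± 0.26 and 1.16 ± 0.24. Rab40b, Ccdc141 and Pnmal2 were also more positive in mature mice. Mean H19 was 222 CPM in mature and 635 CPM in immature mice at 2dpr, and 2593 and 2736 CPM at 5dpr. Mean Prkg1 was 46.8 and 16.2 CPM at 2dpr, and 19.7 and 23.7 CPM at 5dpr. Mean Heyl was 4.53 and 9.12 CPM at 2dpr, and 31.25 and 20.3 CPM at 5dpr. Differences between the ages on a single day were not tested here. With all libraries and no covariate, edgeR called none of these 6 genes; leaving out 2dpr replicate 2 brought Prkg1 and Heyl to an adjusted p of 0.0219 and Pnmal2 to 0.0257, and the muscle covariate brought Prkg1 to 0.00158.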

How the data were processed

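RNA of whole callus pieces was sequenced as paired ends. The authors mapped reads to GRCm38 and deposited raw counts per gene, made with STAR 2.5.2a as the submitters' processing notes say, in a filtered table whose rule is not given in the sources used here. The deposited TMM-scaled signal was used only to check the normalization. Groups follow the labels, and the members and gene lists were chosen with earlier results of these data known. Counts of all 39 libraries were fitted with edgeR 4.0.16 (glmQLFit, TMM; limma 3.58.1, R 4.3.3), 1 mean per age and day, and 5dpr was contrasted with 2dpr in mature mice. P-values were adjusted by Benjamini-Hochberg over 21204 genes at 0.05. CPM are counts scaled to the TMM-adjusted library size, and the SE of a fold change was taken from it and its F statistic. DESeq2 1.42.0 was an alternative, beside other scalings, filters, library sets, the replicate block and a muscle covariate. The test was also run on simulated counts with 1 fixed spread for every gene and no library lacking genes as 2dpr replicate 3 does. That run cannot show how the test behaves with such a library. Genes named were the 12 with the largest called change in each direction (mean of at least 5 CPM, no overlap, named symbol), in each list 3 defining members and the 3 others with the smallest p (at least 1 CPM), and the 6 smallest p of the interaction; other genes were picked after their values were seen. Promoters are RefSeq sequences. Columns without a sample numbered 0.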

Additional observations from a re-analysis of the deposited data

Results flagged for a closer look

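Among 256 sets of 4 library values at 2dpr in mature mice, 18 had 1 library farther from the other 3 than Dixon's limit for 4 samples; by chance about 1 in 20 sets would. The sets share libraries and are not independent. No set at 5dpr could be examined, since it has 3 libraries. Replicate 3 had reads on 14210 genes (rounded), the lowest mean log2 level of oxidative phosphorylation genes (6.368), the highest Acp5 (124 CPM) and Ctsk (209.9 CPM), and the lowest Gpd1 (17.76 CPM). Replicate 4 had the lowest mitochondrial share of counts (2.46%) and the lowest CPM of Lox (257), Col11a1 (5.505) and Adgre1 (398.4). It also had the highest CPM of Card14 (45.75), Cd300lf (206.4), Csf3r (358), Acta1 (5357), Pgam2 (129.7) and Cox6a2 (105.9). Replicate 1 had the lowest CPM of Fn1 (1878) and of Uqcrc1 (152.7), and replicate 2 the highest of Col2a1 (52.66). The direction of Card14, Cd300lf and Csf3r was also that of the libraries without replicate 4, since none of the 5dpr libraries reached the lowest 2dpr library.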

How the results depend on the processing

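No called gene picked by the naming rules changed direction under the alternatives. Genes picked after their values were seen were not followed through all of them. Medians of gene lists close to 0 did change sign, such as that of cell cycle genes, which was -0.07 and became 0.13 without 2dpr replicate 3. The numbers of higher and lower genes were 1662 and 1530 with RLE size factors and 1981 and 1874 with DESeq2. They were 434 and 328 with only the 7 libraries, 982 and 687 with the muscle covariate, 965 and 542 at an adjusted p under 0.01, and 995 and 514 at a log2 fold change of at least 1 in size. Leaving out 1 library gave 1078 to 1890 higher and 591 to 1433 lower genes. Without 2dpr replicates 3 and 4, chosen after seeing the data, 1223 were higher and 776 lower. With only the 7 libraries and no 2dpr replicate 3, 1308 and 1066 were called. For the interaction with age, DESeq2 called 36 genes (32 without 2dpr replicate 3, chosen after seeing the data), the muscle covariate 5, and leaving out 1 library 0 to 3 (3 without 2dpr replicate 2 and 1 without 5dpr replicate 1). The median log2 fold change of all genes was 0.06, and 0.18 with the replicate block and 0.13 without 2dpr replicate 4.

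Samples with the same replicate number did not deviate together (correlations 0.0155, -0.02 and -0.00806), so the numbers are not read as pairs. Adding the replicate block to the model gave 2263 higher and 1304 lower genes.

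Of 5666 single-gene and gene-list values recomputed, 5049 were classed as the same, 366 moved, 213 lost their call and 38 gained one. For a single gene, the same meant an unchanged direction and call, and size was not compared. For a list it meant a median of the same sign, a count within a fixed factor or a score difference within the spread of libraries. In 2dpr replicate 3, 6990 of the tested genes had no read, at a total of 7884546 counts. Immature 5dpr replicate 2, of another age and day, had 6057756 counts and reads on 19981 genes. The cause of the missing genes was not tested.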

Other observations

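Gene families, sorted by symbol after the first results were known, moved as follows, against 8.13% higher and 6.38% lower over all genes. They share members with the lists and named genes above, such as Chrng, Chrna1, C1qtnf3 and Slfn4. Those genes are counted again here. Of 9 Schlafen genes tested, which myeloid and lymphoid cells use, 7 were lower at 5dpr and 0 higher (median log2 fold change -1.03). In the MS4A family of membrane proteins 6 of 13 were lower and 0 higher (median -1.12). Of 14 leukocyte immunoglobulin-like and paired receptors 7 were lower and 1 higher. Among the C1q and TNF related proteins, to which C1qtnf3 belongs, 7 of 8 were higher (median 1.21), and all 5 subunits of the muscle acetylcholine receptor were higher (median 1.97). Of 54 protocadherins, adhesion molecules of neurons and mesenchyme, 11 were higher and 0 lower, and of 25 Hox genes 6 were higher and 0 lower. Ribosomal protein genes gave 1 call among 84. Members of a family share sequence, and their counts may not be independent.

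By annotated type, 10.3% of 15582 protein-coding genes were higher and 7.64% lower, against 4.53% and 2.42% of 662 long intergenic noncoding RNAs. Of 1070 unconfirmed transcripts (TEC), 0.748% were higher and 6.64% lower.

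Ucp1, the uncoupling protein of brown and beige fat, was at 0.744, 0.693, 0 and 0.694 CPM in 2dpr replicates 1 to 4 and at 91.8, 3.10 and 1.51 CPM in 5dpr replicates 1, 3 and 4, so that 1 library carried its mean, and it was not called (adjusted p = 0.0544). Cidea, also of brown fat, was called (3.86 ± 1.33), with 0, 0.520, 0 and 0.833 CPM at 2dpr and 14.5, 2.13 and 2.08 CPM at 5dpr.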
